A study of Mus musculus with 6 samples.

Results

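The BCL2 family of apoptosis genes was examined in mouse morulae after knockdown (KD) of *Yy1*, which encodes a zinc finger transcription factor. The 10 genes were listed by name, and all 10 were found by symbol among the 55364 genes in the deposited table. They are 8 pro-apoptotic genes and 2 anti-apoptotic genes. The pro-apoptotic genes are 3 effectors (*Bax*, *Bak1* and *Bok*) and 5 genes of the BH3-only class (*Bbc3*, *Pmaip1*, *Bcl2l11*, *Bid* and *Bad*). The anti-apoptotic genes are *Bcl2l1* and *Mcl1*. Embryos of the BDF1 x BDF1 cross were made by in vitro fertilization, injected with siRNA as zygotes and grown in KSOM medium until 64 h after insemination. Control KD embryos received a control siRNA and *Yy1* KD embryos an siRNA against *Yy1*, with 3 libraries per group and 10 pooled morulae per library. All embryos carried the same cross and were injected, so the groups differ in the siRNA, and the transcript was lowered by the siRNA without any change of the gene itself. Total RNA was sequenced after SMART-Seq amplification, and the values are TPM, a scaled transcript abundance whose steps correct read pairs for gene length and for the depth of the library. Whether the pools came from separate fertilizations is not given in the sources used here, so p-values measure the spread between these libraries.

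Proteins of this family decide whether the outer mitochondrial membrane stays intact. Effectors such as BAX and BAK can form pores in the membrane, which release cytochrome c and lead to the activation of caspases, while anti-apoptotic members such as BCL-XL (from *Bcl2l1*) and MCL1 hold them in check. BH3-only proteins, named after the short segment they share with the rest of the family, signal stress by occupying the anti-apoptotic members or by activating the effectors, and they are controlled in different ways: PUMA (from *Bbc3*) and NOXA (from *Pmaip1*) mostly by transcription, with p53 as a known activator, BAD by phosphorylation and BID by cleavage. In mouse embryos MCL1 is known to be needed around implantation, and some cells die by apoptosis in the normal blastocyst.

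Positions are from GENCODE vM21 (GRCm38, the assembly of mm10). *Bax* is on chr7:45461697-45466898 (minus strand), *Bak1* on chr17:27019810-27029009 (minus), *Bok* on chr1:93685660-93695764 (plus), *Bbc3* on chr7:16308393-16318205 (plus), *Bcl2l11* on chr2:128126038-128162547 (plus), *Bid* on chr6:120891930-120916853 (minus), *Bad* on chr19:6941861-6951899 (plus), *Bcl2l1* on chr2:152780668-152831728 (minus), and *Mcl1* on chr3:95658788-95663176 (plus). All are annotated as protein coding. Reads were assigned without regard to strand and shared among overlapping genes. In the vM21 annotation the exons of 4 genes overlap those of a neighbour, with which they can share read pairs. Recovered pairs were also fractional for members without such an overlap, such as 151.5 for *Bbc3* in *Yy1* KD replicate 3. Sharing by those members was not examined. The exons of *Bid* overlap those of *Bcl2l13*, a distant relative on the other strand, by 628 nt, and those of *Bad* overlap *Gpr137* on the other strand by 524 nt. *Bak1* overlaps *Ggnbp1* by 437 nt, and *Bax* overlaps *Gm45808* by 192 nt. The values are sums over all isoforms of a gene (9 annotated transcripts for *Bcl2l1*, 8 for *Bcl2l11*), so that the long and short forms of BCL-X, which act in opposite directions, cannot be told apart.

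Promoter sequence was described because the siRNA lowers a factor with a known motif. Whether the motifs searched relate to the changes of these genes was not tested. RefSeq promoter windows (GRCm38.p6, 250 bases before to 50 bases after a start, 15 windows) were matched for 9 of the 10 genes, all but *Pmaip1*. They were searched on both strands for the YY1 core GCCAT, for the longer YY1 consensus GCCATNTT, which contains the core, and for a single copy of the p53 decamer, which reads the same on both strands. The consensus was found in 1 member, *Bax*, that is in 1 of 15 windows (6.67%), beside 6.05% of all 32851 promoter windows. The p53 decamer was also found in *Bax* alone, in 1 of 15 windows (6.67%), beside 8.36% of all windows. The core was found in windows of 3 members (*Bax*, *Bad* and *Bcl2l1*), that is in 3 of 15 windows, beside 40.5% of all windows. The matching stretches are shown because they are where the letters of either factor stand in this family, with the match in capitals and the strand of the gene:
*Bax*, YY1 consensus, chr7:45466863-45466892, minus strand, first base of the match at +18: gcggggcggagGCCATGTTgcggggcaccc
*Bax*, p53 decamer, chr7:45467080-45467109, minus strand, first base at -201: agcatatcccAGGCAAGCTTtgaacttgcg
*Bad*, YY1 core read on the other strand, chr19:6941632-6941661, plus strand, first base at -217: cccgggttacggATGGCggcgggcggccga
*Bad*, YY1 core, chr19:6941692-6941721, plus strand, first base at -157: tgggctaccagtGCCATggaccgccagctc
*Bcl2l1*, YY1 core, chr2:152828582-152828611, minus strand, first base at -110: gtcacttaactgGCCATgtgaccttggaca
These are matches of letters and not bound sites. The 3 windows of *Bbc3* held none of these motifs, nor did those of *Bak1*, *Bok*, *Bcl2l11*, *Bid* and *Mcl1*. Only exact matches within the windows were searched, so motifs elsewhere or with mismatches would be missed.

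The libraries fitted their labels. *Yy1* measured 95.3 ± 5.26 TPM after control KD against 8.65 ± 0.298 TPM after *Yy1* KD (SD, n = 3 libraries), a log2 fold change of -3.32 (limma adjusted p = 6.7e-05). Between 11793509 and 24417789 read pairs on genes could be recovered per library from TPM and exon length. Of the 9 markers of the early embryo, all were detected and none was called. Their summed levels were 2540 to 2713 TPM after control KD, against 2088 to 2533 TPM after *Yy1* KD, without overlap. The groups did not overlap for 2 of the 9 (22.2%, beside 30.1% of all genes tested), *Sox2* and *Dppa5a*, both lower after *Yy1* KD. *Sox2* went from 11.0 ± 2.91 to 5.60 ± 1.51 TPM (log2 fold change -0.86, limma adjusted p = 0.0942). Among 8 markers of cumulus and granulosa cells, the cells that surround the oocyte, 3 were at 0 in every library and the summed level ranged from 0.610 to 1.06 TPM after control KD, against 0.861 to 2.44 TPM after *Yy1* KD. Of 4 sperm markers, 1 was at 0 in every library and the summed level stayed at or below 2.26 TPM.

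In control KD morulae *Mcl1* stood far above the rest of the family, at 240.4 ± 11.4 TPM (SD, n = 3 libraries, as for all levels below), which is higher than 96.5% of the genes tested. A middle group followed, with *Bok* at 46.0 ± 4.23 TPM, *Pmaip1* at 43.6 ± 27.7 TPM, *Bad* at 40.0 ± 1.15 TPM and *Bax* at 36.1 ± 0.765 TPM. *Bcl2l1* was at 16.8 ± 1.80 TPM. The lowest were *Bid* at 9.53 ± 2.71 TPM, *Bcl2l11* at 9.19 ± 0.439 TPM, *Bbc3* at 6.05 ± 2.03 TPM and *Bak1* at 1.08 ± 0.246 TPM. In this order the ranges of *Bok* and *Pmaip1*, of *Pmaip1* and *Bad*, and of *Bid* and *Bcl2l11* overlapped, and the other neighbours were apart in all 3 libraries. The same order in *Yy1* KD morulae began with *Mcl1*, *Pmaip1*, *Bok*, *Bax* and *Bad*, and *Bbc3* now stood in 7th place, ahead of *Bcl2l11* and *Bid*, with values that overlapped those of *Bcl2l1* and *Bcl2l11*. The ranges of *Bok* and *Bax*, and of *Bax* and *Bad*, also overlapped in the *Yy1* KD libraries.

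**Figure D1:**
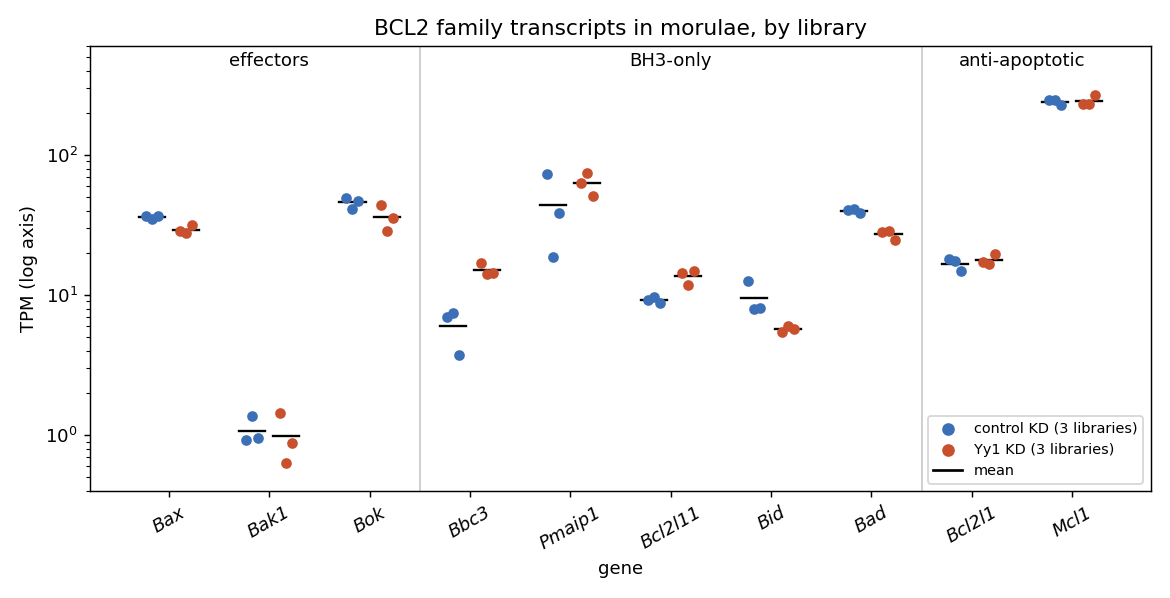
Level of each family member in the 6 libraries, in TPM on a log axis, with control KD libraries in blue, *Yy1* KD libraries in red and a bar at the mean of 3. *Mcl1* is above 200 TPM in every library, *Bak1* is near 1 TPM, and the *Yy1* KD points of *Bbc3* and *Bcl2l11* lie above, and those of *Bad*, *Bid* and *Bax* below, all control KD points.

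Between the groups, 1 gene of the family rose and 1 fell. *Bbc3* was upregulated and *Bad* was downregulated in *Yy1* KD morulae, both of the BH3-only class, while the 2 anti-apoptotic genes and the 2 effectors that could be tested were not called. This was 2 of the 9 members tested (22.2%), beside 6.11% of all 17353 genes tested, 1.92% of which were called higher and 4.20% lower. The test was limma on log2(TPM + 1) over genes that reached 1 TPM in 3 or more libraries, and a gene was called at a Benjamini-Hochberg adjusted p under 0.05. The genes of this family were listed with earlier results of these data known, so the share is a description of these genes. The median log2 fold change of the 9 members was 0.02, and that of all genes tested was -0.02. In 5 of the 9 members (55.6%) the values of the groups did not overlap, 2 higher and 3 lower, beside 30.1% of all genes tested (12.9% higher and 17.2% lower). At an unadjusted p under 0.05 stood 5 of the 9, beside 23.8% of all genes tested. The members called changed with the method. Limma-voom on recovered read pairs called 2 higher and 1 lower, beside 4.73% and 7.59% of its genes (12.3% in all). A filter on an average of 5 TPM or more also called 2 higher and 1 lower, beside 3.54% and 7.88% (11.4% in all). Quantile normalization called 2 higher and 0 lower, beside 2.24% and 3.16% (5.39% in all), and a replicate block called 0 in either direction, beside 0.398% and 1.26% (1.65% in all). In pools of whole embryos, fewer cells that express a gene and less RNA per cell cannot be told apart.

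*Bbc3* encodes PUMA, a BH3-only protein that can bind every anti-apoptotic member. It measured 7.0, 7.43 and 3.72 TPM after control KD, against 16.9, 14.0 and 14.4 TPM after *Yy1* KD. All 3 *Yy1* KD values were higher than any control KD value, and control KD replicate 3 was the lowest of the 6. The mean rose 2.5-fold to 15.1 ± 1.56 TPM, a log2 fold change of 1.23 (standard error 0.24, 95% interval 0.66 to 1.81, limma adjusted p = 0.0370). The difference rests on between 59 and 163 read pairs per control KD library and between 151.5 and 278 per *Yy1* KD library. Leaving out any 1 of the 6 libraries ended the call, with an adjusted p between 0.0615 and 0.105 and a log2 fold change between 0.97 (without control KD replicate 3) and 1.39. These fits have fewer libraries, and over all genes they called between 22 and 92 higher and between 53 and 326 lower.

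*Bcl2l11* encodes BIM, which binds the anti-apoptotic members and can also activate the effectors. It was at 9.22, 9.61 and 8.74 TPM in control KD and at 14.4, 11.9 and 14.8 TPM in *Yy1* KD libraries. The groups did not overlap, and the *Yy1* KD mean of 13.7 ± 1.58 TPM was 1.49 times the control KD mean. The log2 fold change of 0.52 (standard error 0.13, 95% interval 0.21 to 0.84) was not past the threshold (limma adjusted p = 0.0703). It was past it in 3 of 8 other settings, with limma-voom on the recovered read pairs (adjusted p = 0.0134), among genes with an average of 5 TPM or more (0.0479) and with quantile normalization (0.0488).

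*Pmaip1* (chr18:66458533-66465565, plus strand) encodes NOXA, a BH3-only protein that binds MCL1 with preference. Its values were 73.5, 18.7 and 38.8 TPM in control KD and 63.4, 74.0 and 50.6 TPM in *Yy1* KD libraries. The groups overlapped, and the control KD libraries alone covered almost the whole range. The log2 fold change was 0.70 with a 95% interval from -0.36 to 1.76 (limma adjusted p = 0.399). It was 0.21 without control KD replicate 2, the lowest library, and 1.17 without control KD replicate 1, the highest of that group. With between 527 and 1341 read pairs per library, the counts behind *Pmaip1* were higher than those of *Bbc3* in every library.

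*Bad* encodes a BH3-only protein that binds BCL-XL and is kept inactive by phosphorylation under survival signals. It was at 40.6, 40.8 and 38.7 TPM in control KD and at 28.3, 28.8 and 24.7 TPM in *Yy1* KD libraries. The values were close together within each group and did not overlap between them. The mean fell to 27.3 ± 2.21 TPM, 0.682 times the control KD mean, with a log2 fold change of -0.54 (standard error 0.09, 95% interval -0.76 to -0.32, limma adjusted p = 0.0282). Leaving out any 1 library ended the call (adjusted p between 0.0619 and 0.0905), with a log2 fold change between -0.58 and -0.47. *Gpr137*, with which *Bad* can share read pairs, was at 7.79 ± 0.683 and 8.34 ± 2.45 TPM and was not called (limma adjusted p = 0.899).

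*Bid* encodes a protein that is cleaved by caspase-8 and then acts on mitochondria. It was at 12.7, 7.88 and 8.04 TPM in control KD and at 5.48, 6.02 and 5.69 TPM in *Yy1* KD libraries. All *Yy1* KD values were lower, and control KD replicate 1 stood above the other two of its group. The log2 fold change was -0.62 (standard error 0.20, 95% interval -1.10 to -0.14) and was not past the threshold (limma adjusted p = 0.126). Its overlapping neighbour *Bcl2l13* measured 29.4 ± 3.45 TPM after control KD, against 33.3 ± 0.688 TPM after *Yy1* KD (log2 fold change 0.18, limma adjusted p = 0.370).

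Of the effectors, *Bax* was at 36.5, 35.2 and 36.5 TPM in control KD and at 28.7, 27.7 and 31.5 TPM in *Yy1* KD libraries. The groups did not overlap, and the *Yy1* KD mean was 0.813 times the control KD mean. The log2 fold change of -0.29 (standard error 0.09, 95% interval -0.50 to -0.08) was not past the threshold (limma adjusted p = 0.107), and *Bax* was not called in any of the 14 other settings. *Gm45808*, which overlaps it, was not called either (log2 fold change -0.16, limma adjusted p = 0.420).

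*Bok* encodes an effector that is held at low protein level by degradation. It was at 49.6, 41.3 and 47.1 TPM in control KD and at 43.9, 28.5 and 35.4 TPM in *Yy1* KD libraries. *Yy1* KD replicate 1 lay within the range of the control KD values, and the log2 fold change of -0.36 had a 95% interval from -0.75 to 0.03 (limma adjusted p = 0.237). It was -0.21 without *Yy1* KD replicate 2, the lowest library, and -0.52 without *Yy1* KD replicate 1. *Bak1*, which encodes BAK, was at 0.923, 1.36 and 0.947 TPM in control KD and at 1.44, 0.629 and 0.881 TPM in *Yy1* KD libraries, and it was too low to be tested. These values rest on between 8.33 and 33.8 read pairs, and the groups overlapped.

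The groups overlapped for both anti-apoptotic genes. *Mcl1* was at 246, 248 and 227 TPM in control KD and at 231, 230.1 and 269.8 TPM in *Yy1* KD libraries. The highest and the lowest of these 6 values were 269.8 and 227 TPM, and the ranges overlapped. Its log2 fold change was 0.02, with a 95% interval from -0.19 to 0.22 (limma adjusted p = 0.936). *Bcl2l1* was at 18.1, 17.5 and 14.7 TPM in control KD and at 17.2, 16.6 and 19.5 TPM in *Yy1* KD libraries, which also overlapped, with a log2 fold change of 0.08 and an interval from -0.22 to 0.38 (limma adjusted p = 0.744). *Mcl1* made up between 93.1% and 93.9% of the summed TPM of both genes in every library.

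**Figure D2:**
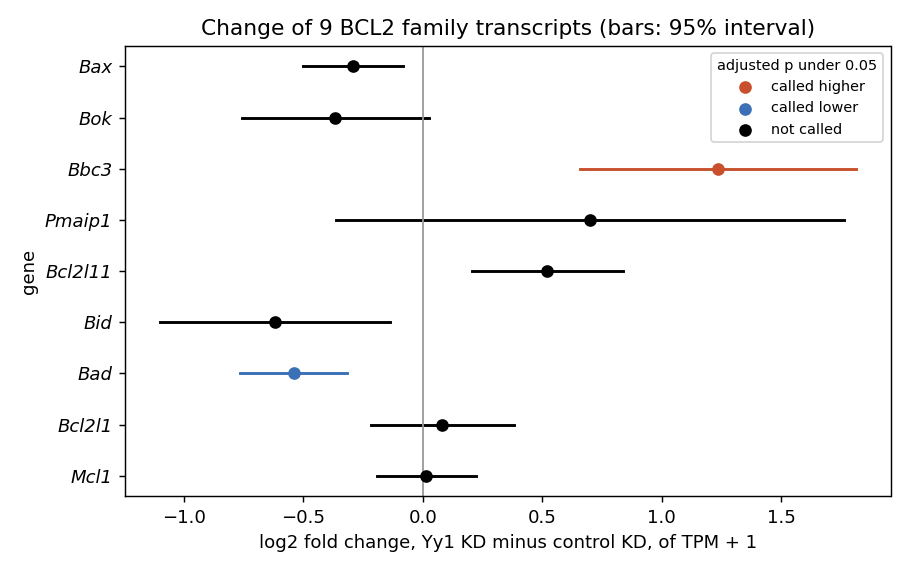
Log2 fold change of TPM + 1 (*Yy1* KD minus control KD) for the 9 members tested, as points with 95% intervals from limma, in red and blue where the adjusted p was under 0.05. *Bbc3* at 1.23 and *Bad* at -0.54 are the called genes, the interval of *Pmaip1* is the widest, and those of *Mcl1* and *Bcl2l1* include 0.

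Exact permutation tests of single genes cannot fall below p = 0.1 with 3 libraries against 3. The two-sided exact p was 0.1 for *Bbc3*, *Bcl2l11*, *Bad*, *Bid* and *Bax*, and higher for the others (0.2 for *Bok*, 0.3 for *Pmaip1*, 0.6 for *Bcl2l1* and 0.8 for *Mcl1*).

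Summed by role, neither the pro-apoptotic nor the anti-apoptotic level separated the groups. The 8 pro-apoptotic genes together reached 191.6 ± 34.7 TPM after control KD, against 190.7 ± 12.2 TPM after *Yy1* KD (SD, n = 3), and the 2 anti-apoptotic genes had 257 ± 13.2 and 261 ± 24.3 TPM. The 3 effectors summed to 87.0, 77.9 and 84.6 TPM in control KD and to 74.1, 56.8 and 67.9 TPM in *Yy1* KD libraries, with no overlap. Within the BH3-only class, *Bbc3* rose and *Bad* fell, and each had a companion whose groups did not overlap in the same direction. *Bbc3* and *Bcl2l11* together had 15.2 ± 2.44 and 28.8 ± 2.70 TPM, and *Bad* and *Bid* together had 49.5 ± 3.32 and 33.0 ± 2.29 TPM, in control KD and *Yy1* KD respectively. These sums were grouped after the values were seen and by the direction of each gene, so their opposite directions follow from the grouping. In the class, 4 of the 5 genes did not overlap between groups (80.0%), beside 30.1% of all genes tested. *Bcl2l11* and *Bid* were not past the threshold (limma adjusted p = 0.0703 and 0.126). Without *Pmaip1* the class summed to 64.8 ± 5.18 and 61.8 ± 2.91 TPM, and the groups overlapped.

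*Pmaip1* was the most variable part of this class. It took 51.4%, 22.1% and 39.6% of the BH3-only sum in the control KD libraries and 49.3%, 54.9% and 45.9% in the *Yy1* KD libraries. The ratio of anti-apoptotic to BH3-only TPM was 1.85, 3.14 and 2.47 in control KD and 1.93, 1.83 and 2.62 in *Yy1* KD libraries, which overlapped. Without *Pmaip1* the ratio was 3.98 ± 0.150 and 4.24 ± 0.545, and it overlapped as well. These sums are of transcripts and do not take into account how the proteins bind.

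**Figure D3:**
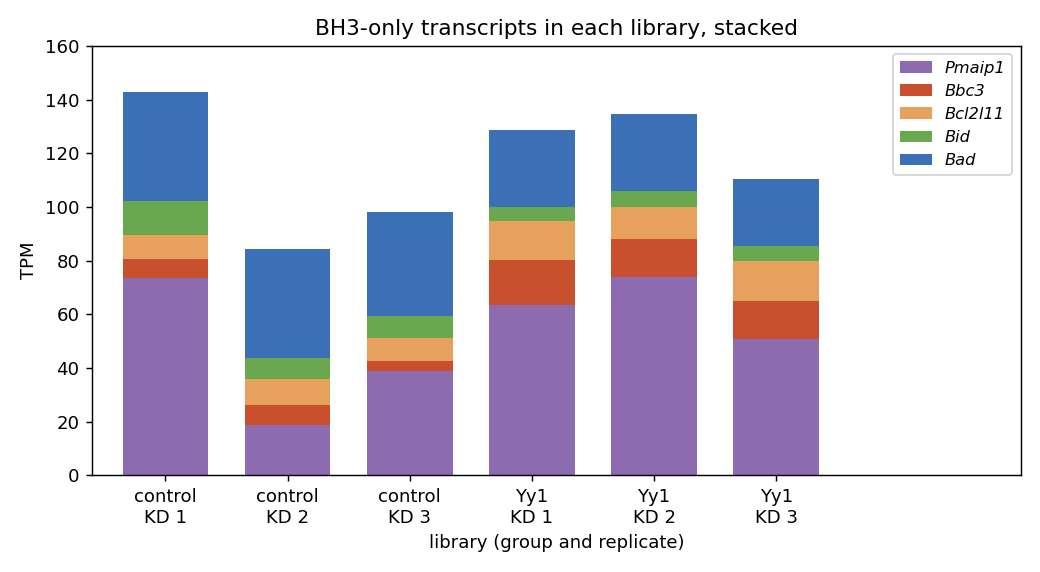
TPM of the 5 BH3-only genes stacked for each of the 6 libraries. The *Pmaip1* segment ranges from 18.7 to 74.0 TPM, the *Bbc3* and *Bcl2l11* segments are thicker and the *Bid* and *Bad* segments thinner in the 3 *Yy1* KD libraries.

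The genes whose levels followed those of the called members most closely were found by Pearson's r of log2(TPM + 1) over the 6 libraries, among 6592 genes with a mean of at least 10 TPM and a named symbol. For *Bbc3* they were *Rpl24* (r = 0.994) and *Rpl32* (0.992), which encode ribosomal proteins, and *Wdr77* (0.993), which encodes a partner of the arginine methyltransferase PRMT5. *Rpl24* went from 513 ± 31.6 to 627 ± 8.37 TPM, a far smaller change than that of *Bbc3*. For *Bad* they were *Vbp1* (0.997), which encodes a prefoldin subunit, *Ociad1* (0.996) and *Kdm2b* (0.994), which encodes a histone demethylase. *Vbp1* went from 88.3 ± 4.44 to 40.4 ± 7.47 TPM. Of the genes compared, 3 reached an r of 0.99 for *Bbc3* and 12 for *Bad*, and 99 and 186 reached 0.95. The libraries of each group share their siRNA, and these values are a description.

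The rest of the pathway was followed in 8 lists with 71 genes, of which 55 passed the filter on low values. Of these, 1 was upregulated and 2 were downregulated (5.45%, beside 6.11% of all genes tested). The values of the groups did not overlap in 20 of the 55 (36.4%, beside 30.1%), and the median log2 fold change was -0.02, as over all genes tested. With limma-voom on recovered read pairs, 11 of 51 related genes were called (21.6%, beside 12.3% of all genes).

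Of the other anti-apoptotic genes, *Bcl2* did not pass the filter (at most 0.0993 TPM), the 3 *Bcl2a1* genes were at 0 in every library, and *Bcl2l2* (4.70 ± 1.2 and 4.82 ± 0.930 TPM) and *Bcl2l10* (3.89 ± 0.648 and 3.96 ± 1.34 TPM), both far below *Mcl1*, were not called. Of the other BH3-only and divergent relatives, 7 of 10 were tested and none was called. The highest of them were *Bnip3*, at 421 ± 44.7 and 319 ± 17.6 TPM (log2 fold change -0.39, limma adjusted p = 0.0636), and *Bnip3l*, at 238 ± 5.25 and 259 ± 3.93 TPM (0.12, adjusted p = 0.281), which encode mitochondrial proteins known for mitophagy. The groups did not overlap for 3 of the 7 (42.9%, beside 30.1% of all genes tested). They were *Bnip3*, which was lower, and *Bnip3l* and *Bcl2l14* (log2 fold change 0.29, limma adjusted p = 0.161), which were higher in all *Yy1* KD libraries.

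Among the genes for the apoptosome and caspases, *Casp2*, which encodes a caspase that cleaves BID and MDM2, was downregulated. It was at 12.3, 14.3 and 15.6 TPM in control KD and at 9.30, 7.27 and 6.06 TPM in *Yy1* KD libraries, without overlap, and its log2 fold change was -0.83 (standard error 0.18, limma adjusted p = 0.0463). *Cycs*, which encodes cytochrome c (46.0 ± 4.07 and 44.2 ± 5.24 TPM, limma adjusted p = 0.794), was not called. *Casp8*, which encodes another caspase that cleaves BID, was at 0.0893 TPM or less in every library. Of 9 genes for inhibitors of apoptosis (IAPs) and their antagonists, 7 were tested and none was called, with *Birc6* (108 ± 5.32 and 112 ± 4.52 TPM) and *Birc5* (113 ± 8.37 and 104 ± 8.89 TPM) as the highest.

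Among genes for the turnover of these proteins, *Usp9x*, a deubiquitinase that stabilizes MCL1, was downregulated. It was at 52.3, 46.0 and 49.6 TPM in control KD and at 34.7, 36.7 and 38.9 TPM in *Yy1* KD libraries (log2 fold change -0.41, standard error 0.09, limma adjusted p = 0.0468). *Huwe1*, a ubiquitin ligase for MCL1, was at 192 ± 23.7 and 181 ± 4.68 TPM and *Btrc* at 47.0 ± 1.90 and 44.0 ± 2.59 TPM, and neither was called. Of 8 genes for mitochondrial membrane partners none was called. The groups did not overlap for 4 of the 8 (50%, 1 higher and 3 lower), beside 30.1% of all genes tested. *Vdac1* (173 ± 6.15 and 154 ± 8.39 TPM, limma adjusted p = 0.234) and *Vdac2*, whose product holds BAK and BAX at the membrane (55.9 ± 3.16 and 43.4 ± 2.02 TPM, adjusted p = 0.0559), both had all *Yy1* KD values below all control KD values.

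Of *Trp53*, which encodes p53, and its regulators, *Mdm2* was upregulated. MDM2 degrades p53, whose activity was not tested here. *Mdm2* was at 71.5, 55.2 and 47.0 TPM in control KD and at 95, 97.1 and 88.2 TPM in *Yy1* KD libraries (log2 fold change 0.70, standard error 0.15, limma adjusted p = 0.0464). *Trp53* itself was at 44.5 ± 2.42 and 45.9 ± 1.07 TPM (log2 fold change 0.05, adjusted p = 0.778), *Usp7* at 199.6 ± 10.7 and 200.6 ± 5.97 TPM and *Atm* at 124 ± 4.86 and 144 ± 3.16 TPM, and none of these 3 was called. In the death receptor arm, 5 of 8 genes were tested and none was called, with *Tnfrsf10b* (17.6 ± 4.03 and 15.3 ± 1.77 TPM) and *Tradd* (11.3 ± 1.27 and 9.18 ± 1.08 TPM) as the highest. *Casp2* and *Usp9x* lost their call without any 1 of the 6 libraries, with an adjusted p between 0.0529 and 0.144 for *Casp2* and between 0.0809 and 0.139 for *Usp9x*. *Mdm2* kept it in 1 of these 6 fits, the one without control KD replicate 1. With all libraries kept, *Casp2* and *Usp9x* were each called in 3 of 8 other settings, and *Mdm2* in 5 of 8.

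**Figure D4:**
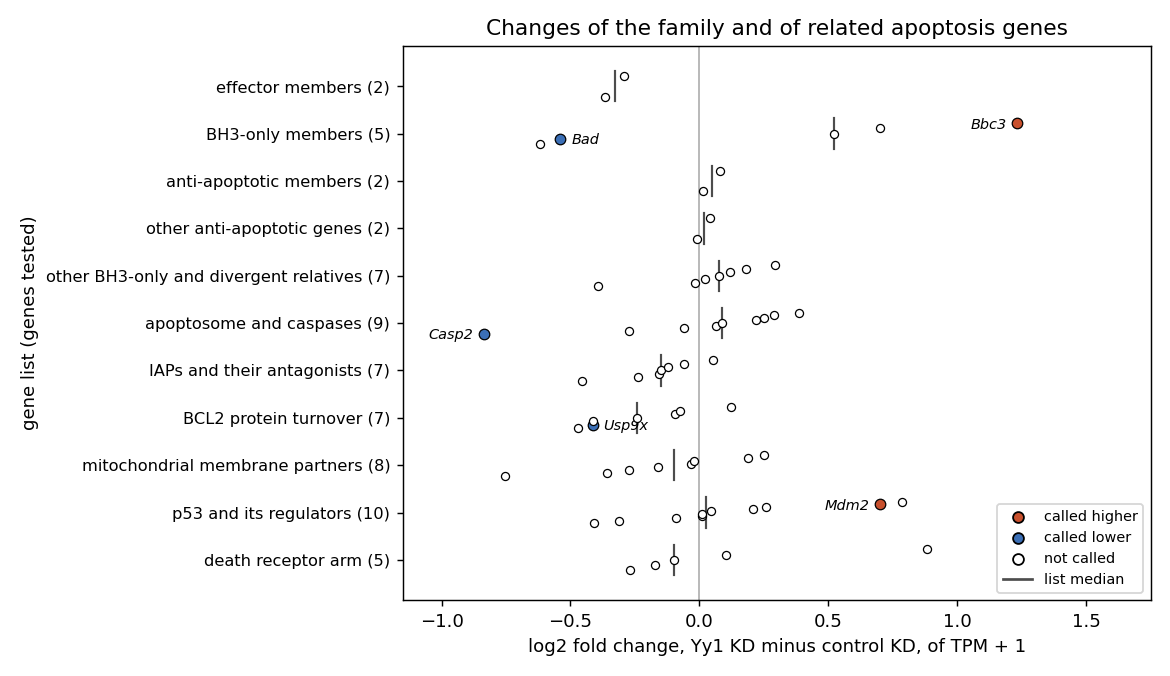
Log2 fold change of TPM + 1 (*Yy1* KD minus control KD) of each gene tested in the family and in 8 related lists, with list medians as vertical bars and the called genes filled and named. The called genes are *Bbc3*, *Mdm2*, *Bad*, *Usp9x* and *Casp2*, and the list medians lie between -0.33 and 0.52.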

How the data were processed

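RNA-seq was performed by the authors on 3 control KD and 3 *Yy1* KD libraries. Per the labels and the study's methods, reads were trimmed with Trim Galore (0.6.7), aligned to mm10 with HISAT2 (2.2.1), freed of ribosomal RNA with bedtools and assigned to GENCODE vM25 genes with featureCounts (2.0.1), with pairs on several genes divided among them and strand ignored. The authors deposited TPM per gene and library, which takes no count model. Values were moved to log2(TPM + 1) and tested with limma (3.58.1, R 4.3.3, variance trend on), over genes that reached 1 TPM in 3 or more libraries, and Benjamini-Hochberg adjusted p-values under 0.05 were called. The test was checked on simulated data. Fold changes on this scale understate changes of low genes.

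Genes were matched by identifier to GENCODE vM21 (54312 of 55364, 98.1%), and TPM times exon length recovered read pairs. Depth was between 11793509 and 24417789 pairs, and between 89.0% and 90.9% of values under 20 pairs, over genes without overlap, came within 0.05 of a whole pair. Counting error alone thus differs between *Mcl1* and *Bak1*. Tables used pandas 2.3.3, scipy 1.17.1 and numpy 2.4.6 under Python 3.11.15, and plots matplotlib 3.10.9.

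The members and gene lists were chosen with earlier results of these data known, and lists were written from general knowledge. Named are *Yy1*, the members, called genes of each list, the 2 genes of each list with the highest mean TPM, and the 3 genes most like each called member; other genes were chosen after their values were seen. A gene that this rule also names is not reported here. Columns of library values left out numbered 0. Alternatives were quantile normalization, median-ratio scaling, no filter, a filter on an average of 5 TPM or more, no variance trend, a pseudocount of 0.1, a replicate block, limma-voom on recovered pairs and leaving out each library. Protein sequences were not used here.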

Additional observations from a re-analysis of the deposited data

How the results depend on the processing

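All 9 members tested kept their direction in every setting except the anti-apoptotic genes, which were near 0: the log2 fold change of *Bcl2l1* was -0.0045 without control KD replicate 3 (-0.0045 to 0.13 over the fits that left out 1 library), and that of *Mcl1* was negative without *Yy1* KD replicate 3 and without control KD replicate 3 (-0.060 to 0.055). Calls depended on the setting. *Bbc3* (log2 fold change 1.23) was not called without a filter (adjusted p = 0.0882), without a variance trend (0.0641) and with a replicate block (0.0664), and over the fits that left out 1 library its log2 fold change was between 0.97 and 1.39. *Bad* (-0.54) was not called in the same 3 settings (0.0537, 0.0651 and 0.0736) nor with quantile normalization (-0.46, adjusted p = 0.0520), and leaving out 1 library gave -0.58 to -0.47. *Bcl2l11* was called with limma-voom on recovered read pairs (0.58), a mean TPM of at least 5 (0.52) and quantile normalization (0.60). The cause was not tested.

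Deviations of same-numbered libraries from their group means had correlations of -0.0039, 0.032 and 0.075. Differently numbered libraries were not compared, and these values cannot tell whether same-numbered pools were made together. With the replicate block, 69 genes were called higher and 218 lower, with 0 members and 0 genes of related lists. Without a filter the counts were 77 and 270, and without a variance trend 132 and 382, with 0 members and 0 related genes in either direction. With limma-voom they were 801 and 1285, with 2 members higher and 1 lower. Of the related genes 5 were higher and 6 lower (21.6% of those tested, beside 12.3% of all genes). With an average of 5 TPM or more, 2 members were higher and 1 lower. That filter called 1 related gene higher and 5 lower (14.0% of those tested, beside 11.4% of all genes). Median-ratio scaling and a pseudocount of 0.1 each called 1 related gene higher and 1 lower (3.64%, beside 5.71% and 5.64% of all genes). With quantile normalization 388 genes were called higher and 548 lower (58.5% lower, against 68.6%). It called 2 members higher and 0 lower, and 2 related genes higher and 0 lower (3.64%, beside 5.39% of all genes). Leaving out 1 library gave between 22 and 92 genes higher and between 53 and 326 lower, 0 members in either direction, and between 0 and 1 related genes higher and 0 lower.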

Other observations

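Several related genes had groups that did not overlap without passing the test, and were chosen after their values were seen. Of the 55 related genes tested, 20 did not overlap between groups (36.4%, 10 higher and 10 lower), beside 30.1% of all genes tested. *Ppm1d*, which encodes a phosphatase that acts on p53, was at 4.08, 4.94 and 4.10 TPM in control KD and at 10.7, 6.25 and 8.33 TPM in *Yy1* KD libraries (log2 fold change 0.79, limma adjusted p = 0.0808). *Ripk1*, a kinase of the death receptor arm, went from 1.82 ± 0.826 to 4.06 ± 0.311 TPM (SD, n = 3; 0.88, limma adjusted p = 0.0942). *Casp6* went from 22.3 ± 1.38 to 29.5 ± 2.43 TPM (0.39, limma adjusted p = 0.0799). *Mff*, which encodes a receptor for mitochondrial fission, went from 5.98 ± 0.389 to 3.20 ± 0.951 TPM (-0.76, limma adjusted p = 0.0914), and *Chek2*, a kinase upstream of p53, from 125 ± 9.11 to 94.4 ± 7.60 TPM (-0.41, limma adjusted p = 0.0503).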
